A study of Mus musculus with 2 samples.

Results

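The protein genes of the mitochondrial ribosome were examined in glomeruli of KK/Ta mice on a high-fat or a normal diet. A gene was taken as a member when a probe set of the array named it alone and its symbol was Mrpl or Mrps followed by a digit. This gave 76 genes of the 18193 on the array that could be named in this way, 47 of them Mrpl genes (large subunit by symbol) and 29 Mrps genes (small subunit by symbol). Where a gene had several probe sets, the one with the highest mean log2 signal over both arrays stood for it. The animals were male KK/Ta mice, 20 weeks old, from a line prone to obesity and diabetes. Both groups share this background, so the control is itself a diabetes-prone mouse, and the groups differ in diet, high-fat (HFD) against normal fat (Chow). Each diet is represented by 1 array of glomerular RNA. The series design text mentions 3 mice, without saying whether RNA was pooled or how many animals stand behind an array. Without replicates no test between the diets was possible, and all values below describe these 2 RNA preparations.

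Mitochondrial ribosomes translate the few messages encoded by mitochondrial DNA, all of them for core subunits of the respiratory chain and ATP synthase. Their ribosomal RNAs come from mitochondrial DNA, whereas every protein of the particle is encoded in the nucleus, made in the cytosol and imported. The large subunit forms the peptide bond and holds the tunnel through which the new chain leaves, and the small subunit binds the message and reads its codons. In the kidney, proximal tubule cells are especially rich in mitochondria, and podocytes, endothelial and mesangial cells of the glomerulus contain fewer.

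Signals are the deposited linear intensities. Differences are HFD minus Chow on the log2 scale after each array was centred on its median probe set, so that a positive value means more signal in HFD. A gene counted as above the floor when its signal exceeded the array median, 42.3 for HFD and 44.9 for Chow. The median difference of the 11356 genes above the floor on at least 1 array was 0.064, and 62.2% of them were higher in HFD. The ratio of 3' to 5' signal, which reports on RNA integrity, was 3.43 in HFD and 3.59 in Chow for Gapdh. For Actb the ratio was 1.72 in HFD and 1.89 in Chow. Of 10 podocyte markers listed 7 were measured, all above the floor. They were higher in HFD for 2 of 7 genes (median -0.035), with a summed signal before centring of 53756 in HFD and 59353 in Chow. Of the other glomerular cells, mesangial markers were higher in HFD for 2 of 4 genes (median 0.030) and endothelial markers for 6 of 8 (median 0.18). Tubule and myeloid markers stood higher on the HFD array. Proximal tubule markers were higher in HFD for 12 of 12 genes (median 0.56, summed signal 13923 against 9514), and those of later tubule segments for 7 of 8 above the floor (median 0.68, 8870 against 6291, with Scnn1g under the floor on both arrays). Macrophage and myeloid markers were higher for 12 of 12 (median 1.44, 5952 against 2377). None of these markers had a deposited signal of 0 on either array. In RNA from bulk tissue, fewer cells of a type and less RNA per cell cannot be told apart, and the part of these cell types in the values below was not tested.

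Every one of the 76 mitoribosomal genes was above the floor on both arrays, and most differed little between the diets. The median difference was 0.044, and 46 genes (60.5%) were higher and 30 lower in HFD, against 62.2% higher and 37.8% lower among all genes. The split moves with the scaling for all genes alike. Without centring, which adds the same 0.083 to every gene, 43.4% of the members and 46.1% of all genes were higher, with medians of -0.039 and -0.019. The member median minus that of all genes was -0.020 with and without centring. With quantile normalization 50% of the members and 54.5% of all genes were higher, and with a loess fit 50% and 54.6%. The range ran from -0.48 for Mrpl55 to 0.70 for Mrpl28, and 66 of the 76 genes (86.8%) differed by less than 0.32 log2, the smallest size counted here, beside 81.4% of all genes above the floor on both arrays. No member reached 2-fold, where 0.722% of all genes were higher and 0.159% lower. Only Mrpl28 was at least 1.5-fold higher and 0 were 1.5-fold lower, against 4.21% and 1.41% of all genes. At 0.32 log2 the counts were 4 higher (Mrpl28, Mrpl46, Mrpl16 and Mrpl19) and 6 lower (Mrpl55, Mrps14, Mrps16, Mrps10, Mrps33 and Mrpl52), against 13.5% and 6.27% of all genes. The share of members counted as higher was below that of all genes, and the share counted as lower was near it.

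**Figure D1:**
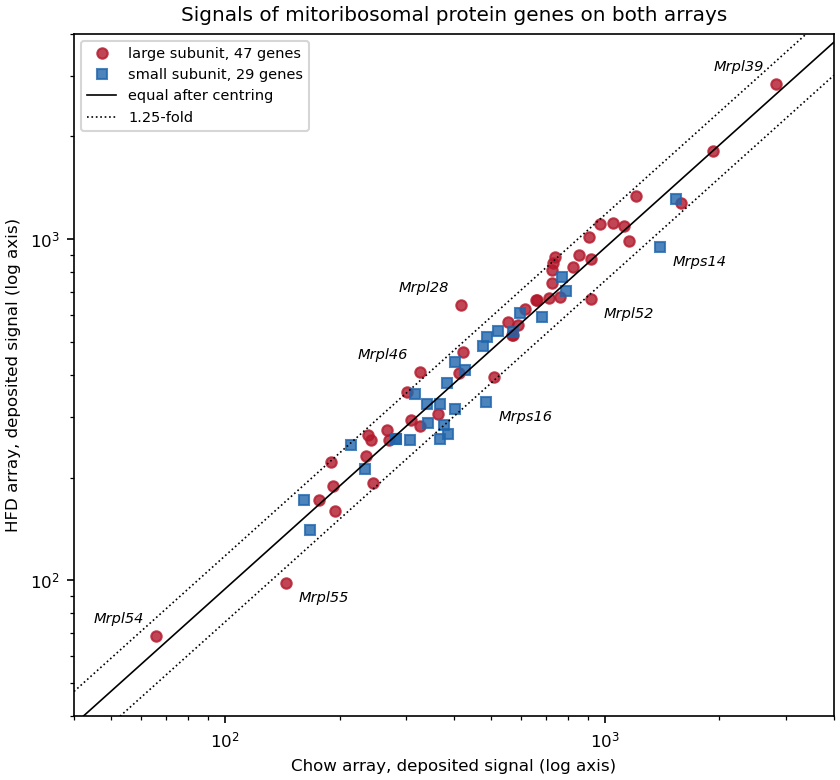
Deposited signal of each mitoribosomal gene on the Chow array (horizontal, log axis) and the HFD array (vertical, log axis), 1 point per gene, circles for the 47 large subunit and squares for the 29 small subunit genes. The solid line marks equal signals after centring and the dotted lines a difference of 0.32 log2; Mrpl28 lies farthest above the line and Mrpl55, Mrps14 and Mrps16 farthest below it.

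The large and small subunits stood on different sides of 0 by their medians. Among large subunit genes 34 of 47 (72.3%) were higher in HFD, with a median difference of 0.090, beside 62.2% and 0.064 for all genes. Among small subunit genes 12 of 29 (41.4%) were higher, with a median of -0.041, so the medians lay 0.13 apart. Without centring the counts were 24 of 47 and 9 of 29, where 46.1% of all genes were higher, and with quantile normalization or loess 28 of 47 and 10 of 29. The 10 largest positive differences came from 9 large subunit genes and 1 small subunit gene, and the 10 largest negative ones from 4 large and 6 small subunit genes. The distributions overlapped widely: 9 small subunit genes lay above the large subunit median and 11 large subunit genes below the small subunit median. The gap between the medians ran from 0.12 to 0.14 over all 10 alternatives. Leaving out centring could not change it, because that shifts every gene alike. No floor and the floor at the 30th percentile could not either, because every member lay above the floor already. Without centring the large subunit median was 0.0061 and the small subunit median -0.12. Genes of a subunit are not replicates of a diet, so the gap was not tested.

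Symbols do not follow the structure of the particle exactly. The proteins of Mrps30 and Mrps18a sit in the large subunit of the mammalian mitoribosome, and that of Mrps36 belongs to the 2-oxoglutarate dehydrogenase complex. Mrps30 differed by 0.062 (379 in HFD, 384 in Chow) and Mrps18a by 0.12 (536 and 524). Mrps36 differed by -0.17 (257 and 306). With Mrps30 and Mrps18a counted as large and Mrps36 left out, 36 of 49 large subunit genes and 10 of 26 small subunit genes were higher, with medians of 0.090 and -0.049. Proteins with a bacterial counterpart and those found only in mitochondria were also counted apart. In the large subunit 21 of 30 genes with a bacterial counterpart (70%) and 15 of 19 mitochondria-specific genes (78.9%) were higher. In the small subunit 8 of 17 (47.1%) and 2 of 9 (22.2%) were higher. These counts, and those by structure, stand beside 62.2% higher among all genes. The medians were 0.099 and 0.062 in the large subunit and -0.057 and -0.041 in the small.

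**Figure D2:**
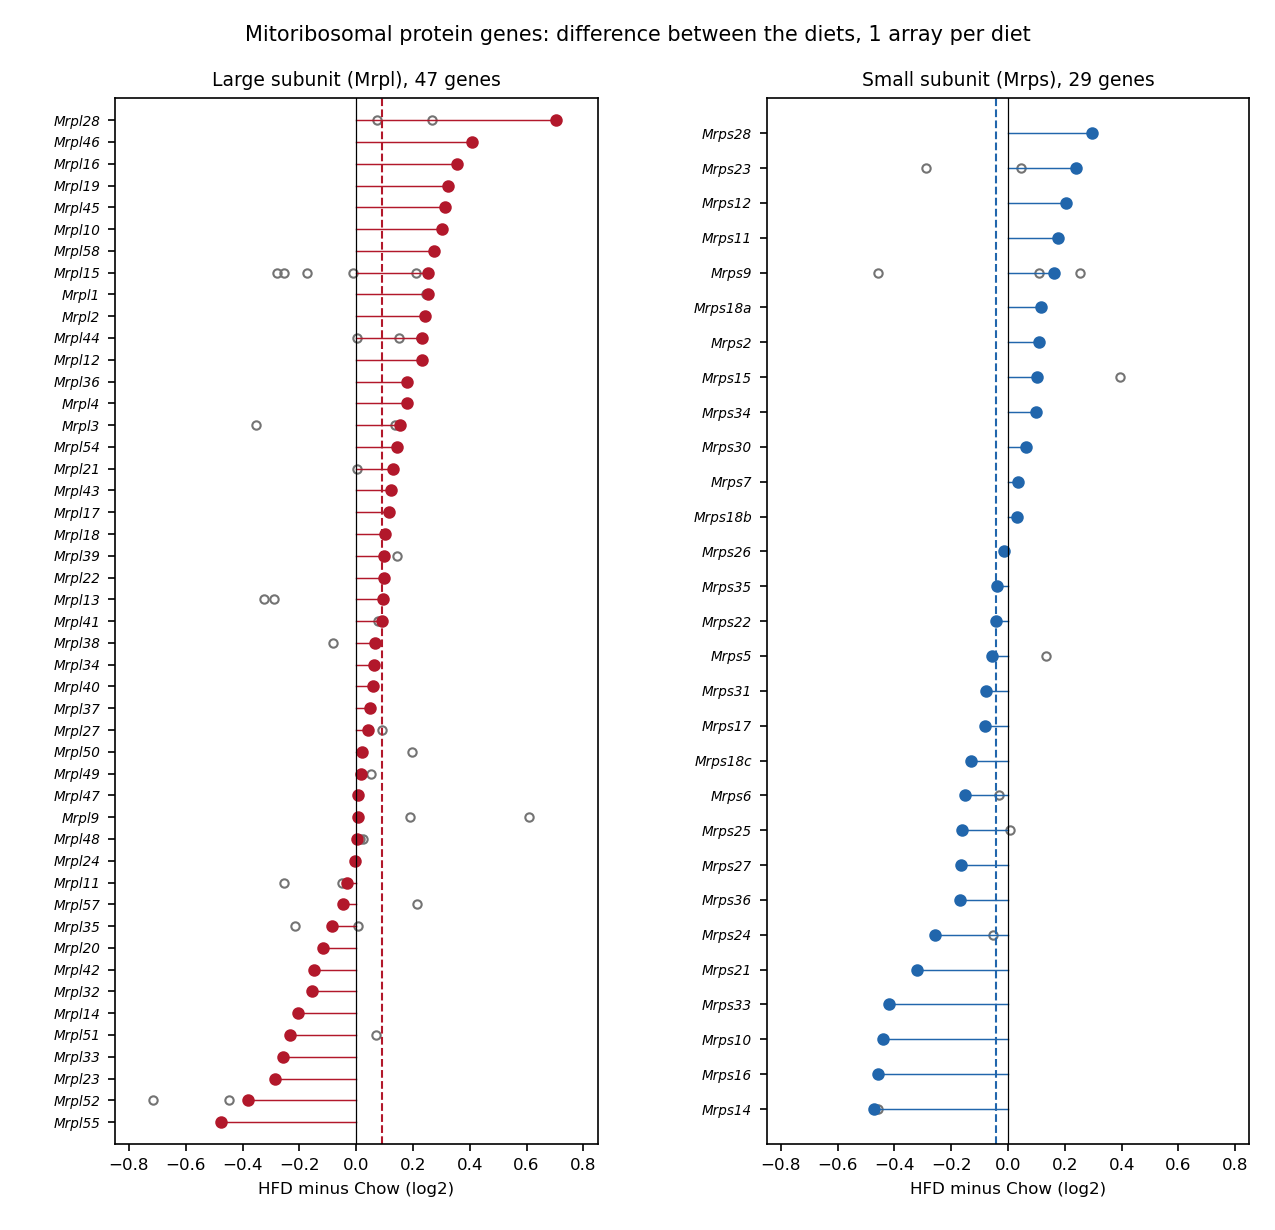
HFD minus Chow difference (log2, horizontal) of every mitoribosomal gene, sorted within the large (left) and small (right) subunit. Filled points are the probe set with the highest mean signal, open points further probe sets of that gene above the floor on both arrays, and dashed lines the subunit medians of 0.090 and -0.041. No filled point of the small subunit lies above 0.30, and 6 of the large subunit do.

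The precision of a single difference was read from genes of like signal. Among the 500 genes nearest in mean signal, the scaled median absolute deviation of the difference ran from 0.16 to 0.41 across the members. Of the 76 members, 9 lay more than 1 such deviation above the median of genes of like signal and 17 below it. Over all genes above the floor on both arrays the shares were 15.8% above and 16.5% below. The 9 members above were all of the large subunit, whereas those below were 8 of the large and 9 of the small subunit. Among those above, Mrpl28 and Mrpl15 depended on the probe set, and stood at 0.27 and -0.011 with the median over probe sets. This scatter holds noise and real differences together.

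Mrpl28, which encodes a large subunit protein with a bacterial counterpart, had the largest difference and rests on 1 probe set. Its signal was 642 in HFD and 418 in Chow, 1.63-fold higher in HFD. A like probe set read 423 and 426, a difference of 0.07, and the third read 315 and 277, a difference of 0.27. The 2 brighter probe sets carry the suffix for probes that may match several transcripts. With the median over probe sets, or without such probe sets, the difference of Mrpl28 was 0.27 and 0 members reached 1.5-fold.

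The other large subunit genes with the largest positive differences spanned several sites of the particle. Mrpl46, in the central protuberance that touches the head of the small subunit, read 409 in HFD and 327 in Chow (1.33-fold higher). Mrpl16, whose protein helps to place transfer RNA at the peptidyl transferase centre, read 888 and 737 (1.28-fold higher). Mrpl19, at the interface between the subunits, read 356 and 301 (0.32), and another Mrpl19 probe set gave the same 0.32 at a signal of 174 and 147. Mrpl46 and Mrpl16 had no further probe set, so for them this check could not be made. Mrpl45, which anchors the ribosome to the inner membrane at the tunnel exit, read 222 and 189 (1.24-fold). Mrpl10, the base of the stalk that recruits translation factors, read 851 and 731 (1.23-fold). Mrpl58, a peptidyl-tRNA hydrolase built into the central protuberance that can free stalled chains, read 1104 and 969 (1.21-fold). Mrpl15 (814 and 724), Mrpl1 of the mobile arm near the exit site (267 and 237) and Mrpl2 of the catalytic core (1013 and 908) followed at 0.25, 0.25 and 0.24.

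By site, 3 of the 4 stalk genes listed were higher, and their median difference was 0.19. Among all genes 62.2% were higher. Mrpl12, whose protein forms the tip of the stalk, differed by 0.23 (467 and 422), Mrpl54 by 0.14 at the lowest signals of any member (68.7 and 65.9), and Mrpl11, at the stalk base, by -0.033. Of the 8 genes listed for the central protuberance 7 were higher, at a median of 0.062, beside 0.064 for all genes. Mrpl52, lower in 3 probe sets, was not in this list. The list was drawn up after the differences had been seen, so the count holds for the genes listed and not for the whole site. The exception in the list was Mrpl55, the member with the largest negative difference, at 98.1 in HFD and 145 in Chow (1.39-fold lower). Its scatter among genes of like signal was 0.33. Of 6 tunnel exit genes 4 were higher, with Mrpl45 at 0.31 and Mrpl23 at -0.29 as the extremes.

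Among large subunit genes with negative differences, Mrpl52 had 3 probe sets above the floor on both arrays. Mrpl52 read 667 in HFD and 920.2 in Chow (1.30-fold lower). Its 2 further probe sets went the same way, at 154 and 269 (-0.72) and at 116 and 167 (-0.45). Mrpl23 read 395 and 511 (1.22-fold lower) and Mrpl33, a small protein that touches transfer RNA near the exit site, 193 and 244 (1.20-fold lower). Mrpl51 read 1276 and 1589 (-0.23) in its brightest probe set, but a dim one gave 0.070. Mrpl37, among the dimmest of the subunit with Mrpl54 and Mrpl55, stood at 0.048 (172 and 177). Mrpl39 and Mrpl24, the large subunit genes with the highest signals, differed by 0.10 (2857 and 2826) and -0.0031 (1815 and 1928).

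Of the small subunit 4 genes were lower by at least 0.32 log2, and 3 of them encode proteins of the head, the part that holds transfer RNA against the message. Mrps14 had one of the highest signals of the small subunit, 949 in HFD and 1396 in Chow, a 1.39-fold difference. Another Mrps14 probe set read 172 and 251, a difference of -0.46 against -0.47. Mrps10 read 268 and 385 (1.36-fold lower) and Mrps33 260 and 368 (1.34-fold lower). Of the 8 head genes listed 6 were lower, with a median of -0.17, beside 37.8% lower among all genes. Mrps24 stood at -0.26 (318 and 402, with -0.055 in a like probe set) and Mrps9 at 0.16. Outside the head, Mrps16, in which mutations in people cause a severe respiratory chain disorder, read 333 and 485 (1.37-fold lower). Mrps21 read 285 and 377 (-0.32), and -0.16 with the median over probe sets. The groups of genes by site were drawn up after the differences had been seen, so these counts are descriptions.

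Small subunit genes with positive differences were fewer and smaller. Mrps28 read 248 in HFD and 214 in Chow (1.23-fold higher). Mrps23 read 352 and 316 (0.24), but its further probe sets gave 0.05 and -0.29. Mrps12, whose protein lies at the decoding site and takes part in reading codons, read 436 and 402 (0.20). Mrps11 read 172 and 161 (0.17). Mrps6, which has the highest mean signal of the small subunit, differed by -0.15 (1307 and 1538). The dimmest of the subunit were Mrps27 (141 and 167, -0.17), Mrps11 and Mrps5 (211 and 233, -0.057). The 3 genes related to bacterial protein S18 did not share a direction: Mrps18a stood at 0.12, Mrps18b at 0.032 (328 and 340) and Mrps18c at -0.13 (589 and 684). Genes linked to mitochondrial disease in people stood on both sides of 0, with Mrps22 at -0.041 (259 and 282), Mrps34 at 0.099 (776 and 768), Mrps2 at 0.11 (485 and 477) and Mrpl44 at 0.23 (1339 and 1207).

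Further probe sets gave a check on measurement within the 2 RNA preparations. The 76 genes had 156 probe sets. Of the 80 further ones, 46 were above the floor on both arrays, and 31 of these (67.4%) went the same way as the chosen probe set, beside 60.5% over all genes. For the genes that differed by at least 0.32 log2, 6 of 6 did. These were 2 probe sets each of Mrpl28 and Mrpl52 and 1 each of Mrpl19 and Mrps14. One of them, of Mrpl28, stood at 0.07 against 0.70. The other genes of that size had no further probe set above the floor. The share over all genes of that size was not computed. The median gap between a further and the chosen probe set was 0.17 log2, beside 0.18 over all genes, and 28 members lay within 0.1 of 0.

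For some genes the probe sets disagreed by more than the difference itself. Mrpl15 had 7 probe sets above the floor on at least 1 array. Its 2 brightest stood at 0.25 and 0.21, the next at -0.25 (242 in HFD and 306 in Chow) and -0.28 (166 and 213), and with the median over probe sets or without shared ones the gene stood at -0.011. These probe sets do not settle a direction for Mrpl15. Mrpl3, near the peptidyl transferase centre, stood at 0.15 in its brightest probe set (898 and 855), at 0.14 in a dim one (138 and 133) and at -0.35 in another (241 and 326). Mrpl13 stood at 0.094 (830 and 824), whereas its further probe sets stood at -0.33 and -0.29. Mrps9 ran from -0.46 (87.4 and 127) to 0.25 over 4 probe sets. Mrpl9 ran from 0.01 to 0.61 (97.4 and 67.6). For Mrpl15 and Mrpl13 the sign turned with the median over probe sets. That of Mrpl9 turned only with other scaling of the arrays or the 25th percentile added, and not with either choice of probe sets. Mrpl44, by contrast, gave 0.23 in its 2 brightest probe sets, then 0.15 and 0.0022.

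Promoters of mitoribosomal genes were compared in the RefSeq promoter table (GRCm38.p6, 250 bases before to 50 after the start), which held 67 of the 76 genes. Factors of the NRF-1, ETS (such as GABP) and YY1 families are known regulators of nuclear genes for mitochondria. The letters searched on both strands were GCGCNTGCG for NRF-1, CCGGAAGT for ETS and AAGATGGCG for YY1. Of the 67 genes 17 (25.4%) held the NRF-1 letters, 12 (17.9%) the ETS letters and 8 (11.9%) the YY1 letters, and 34 (50.7%) held at least 1 of them. Among 9220 array genes above the floor with a listed promoter, the shares were 15.8%, 9.13%, 3.64% and 25.8%, and among all 27025 genes listed they were 7.12%, 4.31%, 1.64% and 11.96%. Members with the NRF-1 letters had a median difference of 0.097 (12 of 17 higher) and those without 0.0050 (26 of 50 higher). Among all genes 62.2% were higher. Of the 17 genes with the NRF-1 letters 12 were of the large subunit, where 72.3% of members were higher. For the ETS letters the medians were -0.027 with and 0.035 without. They were -0.019 and 0.019 for YY1, and 0.034 and 0.016 for any of the letters. Differences of other genes with these letters were not computed. The motifs were counted separately, overlaps allowed. A match is a description of the letters and not of binding, and these medians were not tested.

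The following promoters show the members at both ends of the range and the 3 kinds of match, in capitals. Mrpl28 (chr17:26123253-26123552, plus strand) and Mrps14 (chr1:160194965-160195264, plus strand), the genes with the largest positive and the second largest negative difference, hold none of the letters searched. Mrpl52 (chr14:54426659-54426958, plus strand), lower in 3 probe sets, holds the ETS letters on the minus strand just after the start. Mrpl45 (chr11:97315466-97315765, plus strand), at 0.31, holds 3 matches to the NRF-1 letters. Mrpl43 (chr19:45006393-45006692, minus strand), at 0.12, holds an NRF-1 and an ETS match. Mrps11 (chr7:78782881-78783180, plus strand) holds the YY1 letters and shares this window with the start of Mrpl46. Sequences run 5′ to 3′ along the strand of the gene.
Mrpl28: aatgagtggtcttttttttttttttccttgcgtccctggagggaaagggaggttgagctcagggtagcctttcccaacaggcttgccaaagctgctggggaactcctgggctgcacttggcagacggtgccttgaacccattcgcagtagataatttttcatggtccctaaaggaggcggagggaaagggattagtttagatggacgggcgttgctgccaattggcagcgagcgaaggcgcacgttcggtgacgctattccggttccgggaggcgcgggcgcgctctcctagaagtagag
Mrps14: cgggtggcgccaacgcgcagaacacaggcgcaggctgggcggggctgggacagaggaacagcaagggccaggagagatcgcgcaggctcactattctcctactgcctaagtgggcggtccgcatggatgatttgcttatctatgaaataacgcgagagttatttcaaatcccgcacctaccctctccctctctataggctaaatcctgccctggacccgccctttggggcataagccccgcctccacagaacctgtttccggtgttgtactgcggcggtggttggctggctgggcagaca
Mrpl52: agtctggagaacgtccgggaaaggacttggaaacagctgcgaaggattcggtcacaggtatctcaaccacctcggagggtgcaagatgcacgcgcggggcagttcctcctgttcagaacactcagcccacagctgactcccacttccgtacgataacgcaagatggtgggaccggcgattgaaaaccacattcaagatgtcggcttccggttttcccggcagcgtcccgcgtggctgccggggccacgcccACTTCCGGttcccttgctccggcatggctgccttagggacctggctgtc
Mrpl45: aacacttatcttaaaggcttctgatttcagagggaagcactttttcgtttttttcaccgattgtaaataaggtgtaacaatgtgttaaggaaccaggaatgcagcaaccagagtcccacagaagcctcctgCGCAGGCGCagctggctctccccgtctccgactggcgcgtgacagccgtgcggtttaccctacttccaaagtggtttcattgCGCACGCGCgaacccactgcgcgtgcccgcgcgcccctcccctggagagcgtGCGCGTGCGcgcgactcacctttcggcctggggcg
Mrpl43: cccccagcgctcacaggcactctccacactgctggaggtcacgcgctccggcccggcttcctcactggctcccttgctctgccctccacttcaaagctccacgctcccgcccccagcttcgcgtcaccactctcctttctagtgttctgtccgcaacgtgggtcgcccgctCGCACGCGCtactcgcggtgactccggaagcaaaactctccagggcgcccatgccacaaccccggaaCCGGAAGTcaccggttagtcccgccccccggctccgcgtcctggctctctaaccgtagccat
Mrps11: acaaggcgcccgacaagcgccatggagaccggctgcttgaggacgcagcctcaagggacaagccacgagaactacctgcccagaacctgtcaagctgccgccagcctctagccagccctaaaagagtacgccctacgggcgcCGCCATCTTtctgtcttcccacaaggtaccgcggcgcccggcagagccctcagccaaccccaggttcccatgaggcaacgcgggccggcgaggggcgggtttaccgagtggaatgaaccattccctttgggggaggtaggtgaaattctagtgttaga

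Many members start head to head with another gene, so that 1 short stretch of DNA lies upstream of both. Of the 67 genes 25 (37.3%) had a gene on the opposite strand starting within 1000 bases upstream, against 19.8% of array genes above the floor and 12.3% of all genes of the table. Mrpl46 and Mrps11, a large and a small subunit gene, start 42 bases apart, and both were higher in HFD (0.41 and 0.17). Mrps12 lies 147 bases from Sars2, which encodes the mitochondrial seryl-tRNA synthetase, and they stood at 0.20 and 0.38. Mrpl43 lies 116 bases from Twnk, the mitochondrial DNA helicase, and they stood at 0.12 and 0.25. Other pairs parted: Mrpl47 stood at 0.0079 and its neighbour Ndufb5, a complex I subunit, at -0.58 (968 in HFD and 1535 in Chow), and Mrpl49 at 0.016 beside Fau, a ribosomal protein precursor, at -0.47 (2053 and 3018). Mrpl21 stood at 0.13 beside Ighmbp2 at -0.50. Of the 19 pairs whose partner was above the floor on at least 1 array, 11 went the same way. With 62.2% of all genes higher in HFD, unrelated genes also often go the same way. The share over all head-to-head pairs was not computed, so the count is not read as a trait of these pairs.

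**Figure D3:**
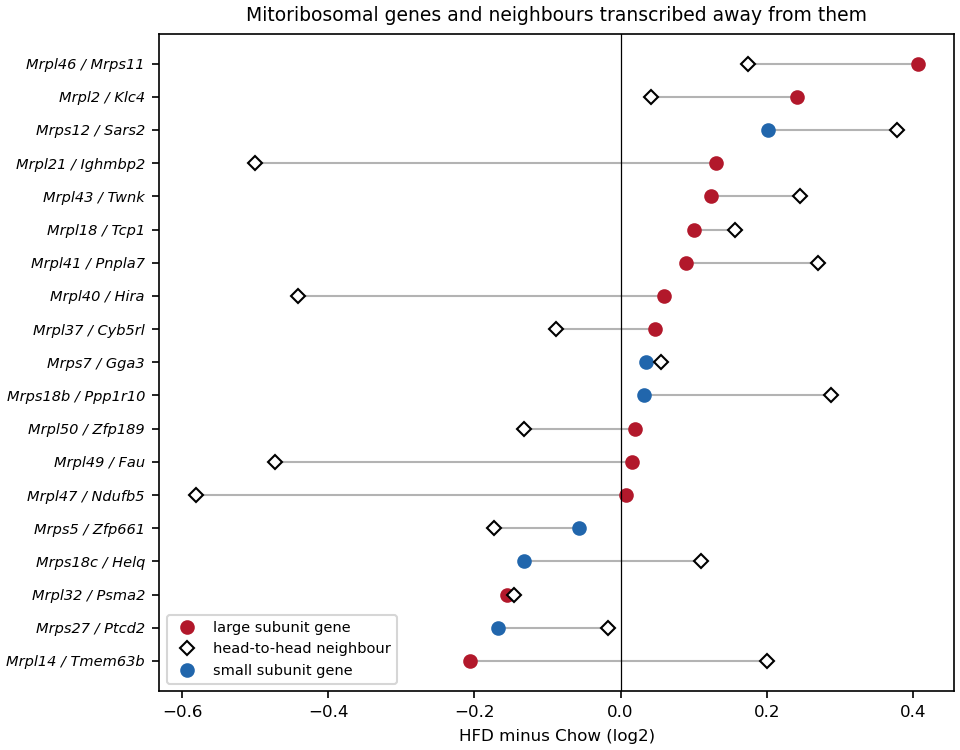
HFD minus Chow difference (log2, horizontal) of mitoribosomal genes (filled circles) and of the gene that starts head to head with each (open diamonds), 19 pairs. Grey lines join the genes of a pair. On 1 side of 0 lie 11 pairs, among them Mrpl46 with Mrps11 and Mrps12 with Sars2. Other pairs part, such as Mrpl47 and Ndufb5. Colour marks the subunit of the member.

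Genes that build or serve the mitoribosome were described from lists of known members. Assembly factors, which fold and modify the ribosomal RNA, were higher for 14 of 20 (70%, beside 62.2% of all genes), with a median of 0.16. Mrm2, a methyltransferase of the large ribosomal RNA, was 1.91-fold higher at low signals (185 and 102), Mtg2, a GTPase that checks large subunit maturation, 1.44-fold (327 and 240), and Rbfa, a small subunit maturation factor, 1.42-fold (969 and 724). Mterf4 and Trmt61b were lowest at -0.22 each. The assembly median was 0.049 with the median over probe sets and -0.021 without shared probe sets. Translation factors were higher for 7 of 13 (53.8%), with a median of 0.044: the recycling factor Mrrf stood at 0.37 (600.3 and 493) and the elongation factor Tsfm at 0.36, while Slirp, an RNA-binding partner of Lrpprc, stood at -0.49 (350.2 and 520) and Gfm2 at -0.28. Mitochondrial aminoacyl-tRNA synthetases and their partners were higher for 11 of 16 (68.8%), with a median of 0.092. Sars2 (0.38) and Hars2 (0.23) were highest. Qrsl1 stood at -0.27, and Vars2, above the floor in Chow only, at -0.32 with its HFD signal raised to the floor. Mitoribosomal proteins with other names stood mostly below 0: Chchd1, of the small subunit, at -0.44 (395 and 566), Gadd45gip1, of the large subunit, at -0.17, Ptcd3, which binds the incoming message, at -0.12 and Dap3 at 0.062.

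Genes of other large complexes had medians below that of the mitoribosomal genes with the settings used here. Of all genes 37.8% were lower, and 6.27% were lower by at least 0.32 log2. Cytosolic ribosomal proteins were lower for 29 of 46, with a median of -0.16 and 15 lower by at least 0.32 log2. Without shared probe sets their median was 0.031. Rps27 (-0.98, at 51.2 and 107) and Rpl37a (-0.83) were lowest, and Rpl12 (0.37) and Rps4l (0.28) highest. Complex I subunits were lower for 23 of 32, with a median of -0.11, from Ndufb2 (-0.82) and Ndufb6 (-0.60) to Ndufab1 (0.19) and Ndufa10 (0.25). Subunits of complexes III to V were lower for 20 of 37, with a median of -0.072, from Uqcr11 (-1.13) and Cox6c (-0.90) to Uqcrc2 (0.31) and Atp5pb (0.41), and that median turned to 0.0075 with the floor at the 30th percentile. All lists share the same 2 arrays, and the differences between lists were not tested.

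**Figure D4:**
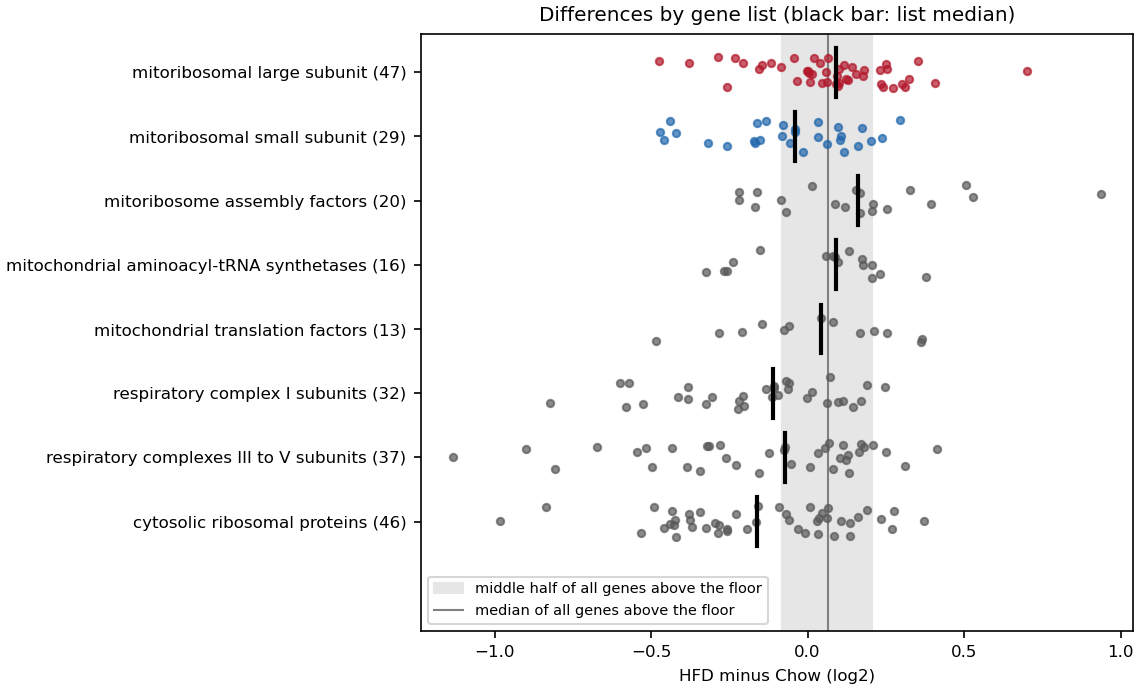
HFD minus Chow difference (log2, horizontal) of each gene above the floor, by list, with the number of genes in brackets and a black bar at each list's median. The grey band spans the middle 50% of all genes above the floor; the medians run from 0.16 for assembly factors to -0.16 for cytosolic ribosomal proteins.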

How the data were processed

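Total RNA of isolated glomeruli was labelled with an Affymetrix two-cycle kit and hybridised to Affymetrix Mouse Genome 430 2.0 arrays, per the labels' protocols. The deposited values are linear probe set intensity values, 1 column per array; the sources used here do not give how probes were summarised or arrays scaled. The design text names GeneSpring 7.3.1. No detection calls or probe-level values were used.

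After removal of 64 control probe sets, log2 values were centred on the array median, which added 0.083 to each HFD minus Chow difference, and values below the floor (each array's 50th percentile) were raised to it. By the 2016 platform annotation, 34945 probe sets had 1 gene symbol, 932 several and 9160 none. Steps were tested on simulated data. The number of arrays, 1 per diet, limits the precision, and no p-value is given.

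The members, lists, rules and alternatives were chosen with earlier results of these data known, and the groups by structural site after the differences were seen. Genes named were the 10 largest differences in each direction, those at least 1.5-fold different, those above the floor on 1 array only (0 found), the 3 highest and 3 lowest mean signals per subunit, genes with probe sets over 0.3 apart from 0 in opposite directions (0 found), the Mrps18 genes, and the 2 largest differences each way in each related list; disease genes, genes with discordant probe sets and head-to-head pairs were added after their values were seen. Alternatives were no centring, quantile normalization, loess (span 0.3), no floor, a floor at the 70th or the 30th percentile, adding the 25th percentile, the median over probe sets, leaving out shared probe sets (suffix s, x or a), subunits by structure, and thresholds of 0.32 log2 and 2-fold. Shared here means that probes may match several transcripts, of the same gene (suffix a) or of several genes (suffix s or x). Python 3.11.15, pandas 2.3.3 and numpy 2.4.6 were used.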

Additional observations from a re-analysis of the deposited data

How the results depend on the processing

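The gap between the large and small subunit medians kept its direction in all 10 alternatives (0.12 to 0.14). No centring, no floor and the floor at the 30th percentile could not change this gap. The median of all 76 members was -0.039 without centring, where 43.4% of members were higher; this shift is the same for every gene, and all genes then had a median of -0.019 with 46.1% higher. The number of members at least 1.5-fold higher was 0 with the median over probe sets and without shared probe sets, since Mrpl28 then stood at 0.27; 4 were higher and 6 lower at 0.32 log2, and 0 higher at 2-fold. Leaving out shared probe sets kept 60 members and turned the median of cytosolic ribosomal proteins to 0.031. The median of complexes III to V turned to 0.0075 with the floor at the 30th percentile, 0.021 with no floor and 0.015 with the 25th percentile added; these settings admit dim genes. The sign was kept in every alternative that gave a value for 57 of 76 members. No centring turned 13, quantile normalization and loess 8 each. No paired analysis was possible because each diet has 1 array and the labels carry no replicate numbers, and no array could be left out. Signal over background limits Mrpl54 most, with a scatter of 0.41 among genes of like signal.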

Other observations

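Regulators of nuclear genes for mitochondria were higher for 5 of 8 above the floor (62.5%), close to the 62.2% of all genes. Ppargc1a, the coactivator PGC-1alpha, was 1.33-fold higher (205 in HFD and 164 in Chow) and Gabpb1, a subunit of GABP, 1.26-fold (351 and 295). Nrf1, which encodes the factor NRF-1, stood at 0.12 (209 and 204) and Yy1 at 0.14 (3215 and 3097), while Ppargc1b stood at -0.19, Pprc1 at -0.17 and Gabpa at -0.044. Myc was under the floor on both arrays. Proximal tubule markers were higher for 12 of 12 genes on the same array, and their part in this was not tested.

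Genes that copy and transcribe mitochondrial DNA were higher for 8 of 12 (66.7%, beside 62.2% of all genes). Polg, the DNA polymerase, stood at 0.38 (400.2 and 327), Mterf2 at 0.33 and Tfam, which packages mitochondrial DNA and starts its transcription, at 0.28 (900.2 and 787). Mgme1, an exonuclease of mitochondrial DNA, was 1.80-fold lower at low signals (56.7 and 108), and Tefm, the elongation factor of mitochondrial RNA polymerase, 1.31-fold lower (180.3 and 250). ND5, the mitochondrially encoded gene named on the array, stood at -0.021 (13563 and 14581).

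Probe sets that name a mitoribosomal gene together with another gene were left out of the counts. The one for Nme3 and Mrps34 read 238 in HFD and 386 in Chow, a difference of -0.61, whereas the probe set of Mrps34 alone stood at 0.099. The one for Ccdc142 and Mrpl53 stood at -0.10 (296 and 337) and the brighter one for Gm6238 and Mrpl30 at 0.088 (384 and 383).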
